A study of Homo sapiens with 28 samples.

Results

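IBET151-VHL was compared with its parent inhibitor IBET151 in the nuclear fraction of MDA-MB-453 cells, an established human breast cancer line. The comparison was taken by column name from the tables of all reads and of T>C reads and covers 5 of the 28 libraries of the series: 3 nuclear libraries of cells given IBET151-VHL for 3 h and 2 nuclear libraries of cells given IBET151 for 3 h. The other nuclear libraries were 3 each of JQ1-VHL, JQ1 and DMSO, the vehicle, and the same 5 treatments make up 14 cytoplasmic libraries. All cultures, the DMSO ones included, received 0.1 mM 4-thiouridine for the last 60 min before they were harvested, and Drosophila S2 cells made up 10% of the material before digitonin was used to separate the cytoplasm from a pellet of nuclei. The labels give no doses, so the 2 compounds were matched in time but not known to be matched in dose. They describe 1 cell line and do not say whether the replicates were separate cultures, so p-values measure the spread between these libraries, which may be technical.

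BET proteins are readers of acetylated histones that bind chromatin through bromodomains and help RNA polymerase II to pass from pausing into elongation. IBET151 blocks the bromodomains and leaves the proteins in the cell, whereas a compound that joins such an inhibitor to a ligand of VHL, the substrate receptor of a ubiquitin ligase, is built to have the bound BET proteins marked for the proteasome. 4-thiouridine is taken up by cells and built into the RNA they make, and after alkylation it is read as C in place of T. A read with such conversions (a T>C read) therefore counts as newly made RNA, and all reads together count the stock of polyadenylated RNA. Libraries were made from the 3′ ends of polyadenylated RNA. Values are those the authors scaled to ERCC RNA, which was added per mass of RNA and not per cell. A value therefore counts reads per mass of RNA. The number of nuclei and the amount of RNA in each nucleus were not measured.

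The nuclear libraries held 17851589 to 23028692 reads with IBET151-VHL and 20489624 and 27487262 reads with IBET151. T>C reads numbered 214725 to 307472 with IBET151-VHL and 1001161 and 1141071 with IBET151. The labelled fraction was checked on nuclear RNAs: NEAT1 averaged 24426 in the nuclear and 1071 in the cytoplasmic libraries of IBET151-VHL, and 26120 and 1511 in those of IBET151. Luminal and epithelial markers were present (all 11 in the table, a summed value of 107162 to 353511 with IBET151-VHL and 289361 to 435779 with IBET151). Of 12 markers of stromal, immune, vascular and basal cells, 10 were in the table and 4 reached the minimum for a test, and their sum was 2130 to 6455 with IBET151-VHL and 4823 to 5540 with IBET151, most of it the collagen gene COL1A1. IBET151-VHL replicate 1 stood apart. Its summed value of all reads was 13.9 M (M for mega-units), against 39.8 and 43.8 M in replicates 2 and 3, and 1 read in it was worth 0.776 units, against 1.73 and 2.24. Its library number lies in the lowest of 4 runs of consecutive library numbers in the sample titles, called A to D here, and run A holds no IBET151 library. Within run B stand IBET151-VHL replicate 2 and IBET151 replicate 1, and within run C stand IBET151-VHL replicate 3 and IBET151 replicate 2. What a run stands for is not given, so results are printed with these within-run values or without replicate 1 where they differ.

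Nuclear RNA from cells given IBET151-VHL had a several times lower T>C value per ERCC than that from cells given IBET151 in both runs. The sum of all polyadenylated RNA per ERCC differed little within a run (log2 -0.05 and -0.32). As ERCC was added per mass of RNA, neither sum gives an amount per nucleus. The summed value of T>C reads was 0.239, 0.528 and 0.481 M in the IBET151-VHL libraries and 2.30 and 1.99 M in the IBET151 libraries. The groups did not overlap, and the log2 difference was -2.45, or 5.45-fold lower with IBET151-VHL (two-sided exact permutation test, p = 0.1, the smallest p that 3 against 2 libraries allow). It was 4.35-fold lower within run B and 4.15-fold lower within run C. T>C reads made up 1.72%, 1.33% and 1.10% of the summed value with IBET151-VHL and 5.57% and 3.64% with IBET151 (1.38 ± 0.316% and 4.61 ± 1.36%, SD, n = 3 and 2). This share does not depend on the scaling of a library, and it differed by -3.22 percentage points, again without overlap (two-sided exact permutation test, p = 0.1), by -4.24 points within run B and by -2.55 points within run C. For the median gene the share was 1.19%, 0.865% and 0.546% with IBET151-VHL and 6.75% and 4.08% with IBET151.

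The summed value of all reads was 13.9, 39.8 and 43.8 M with IBET151-VHL and 41.3 and 54.7 M with IBET151. The groups overlapped, IBET151-VHL replicate 3 lying above IBET151 replicate 1, and the log2 difference of -0.72 did not pass (two-sided exact permutation test, p = 0.5). Replicate 1 decided its size, since the difference was -0.19 without it, -0.05 within run B and -0.32 within run C.

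Run B holds 1 nuclear library of each of the 5 treatments, so it shows them side by side. Its T>C share was 1.33% with IBET151-VHL, 5.57% with IBET151, 2.36% with JQ1-VHL, 5.69% with JQ1 and 6.34% with DMSO. The summed T>C value in that run was 0.528 M with IBET151-VHL and 2.30 M with IBET151, with 1.06 M for JQ1-VHL, 2.19 M for JQ1 and 3.08 M for DMSO. Both VHL compounds thus lay under both inhibitors, and IBET151-VHL lay lowest, in a set with 1 library per treatment and no replicate check. The DMSO and JQ1 libraries of run D had T>C shares of only 2.25% and 1.94%, so the group means of those treatments are pulled down by 1 library each.

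**Figure D1:**
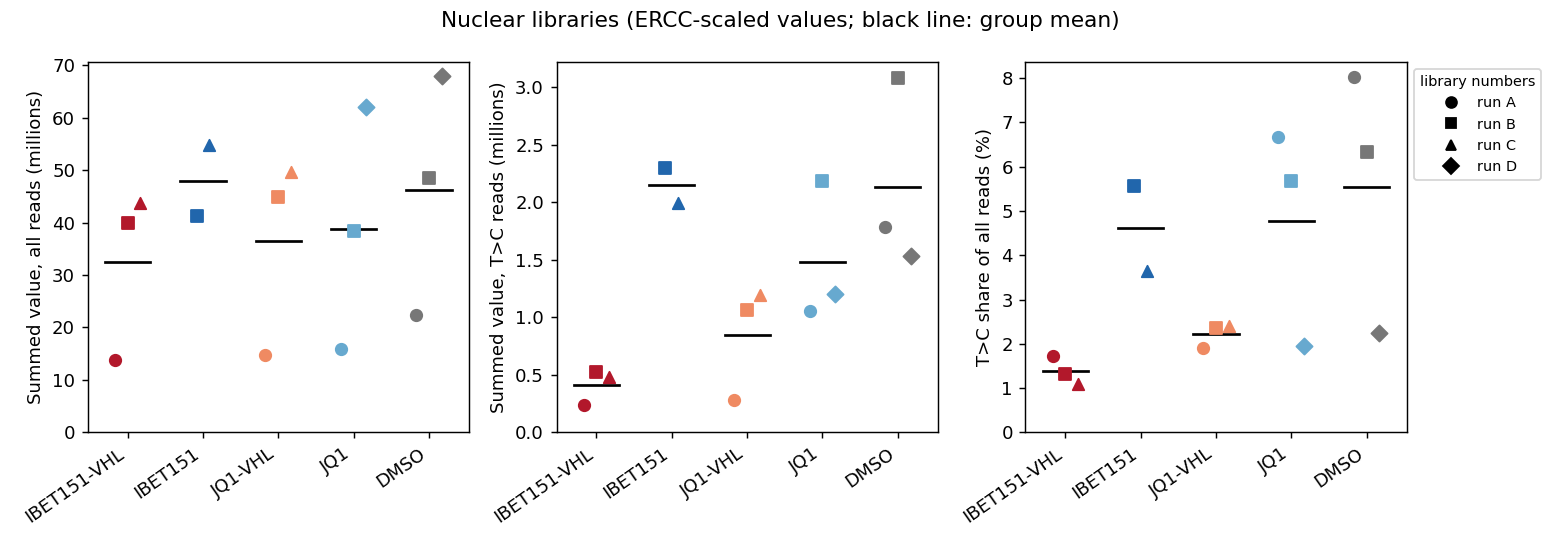
Summed ERCC-scaled value of all reads in mega-units (M) (left), of T>C reads in mega-units (M) (middle) and T>C share in percent (right) for the nuclear libraries by treatment; each point is 1 library, its shape marks the run of library numbers and the black line is the group mean. All 3 IBET151-VHL libraries have a T>C share under 2%, below both IBET151 libraries, while the all-read sums overlap.

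In T>C reads, nearly the whole transcriptome was lower with IBET151-VHL than with IBET151. Of 12059 genes tested, 9815 were lower (81.4% of genes tested) and 36 were higher (0.299%), by limma on log2(value + 1) with a Benjamini-Hochberg adjusted p under 0.05, which is the rule for every gene said here to have risen or fallen. The median log2 change was -3.01, an 8.06-fold lower level, and it was -2.76 within run B and -2.75 within run C. Of the genes that fell, 9782 of 9815 were lower within both runs (88.7% of genes tested were), whose libraries are among those the genes were called on. Of the 9815, 654 had no T>C read in any IBET151-VHL library. Where a gene has no read in that group, the fold is a bound set against a floor of 3 reads over the group, and with such genes at their bound the median was -2.99. Scaling each library to its human genes removes most of a shift that all genes share: the median was then -0.41 by median ratios and -0.27 by TMM, and 691 genes were higher and 1191 lower by median ratios (630 and 691 by TMM). Gene-level falls in T>C reads are therefore falls per ERCC, and directions that turn under these scalings are named beside the gene groups.

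**Figure D2:**
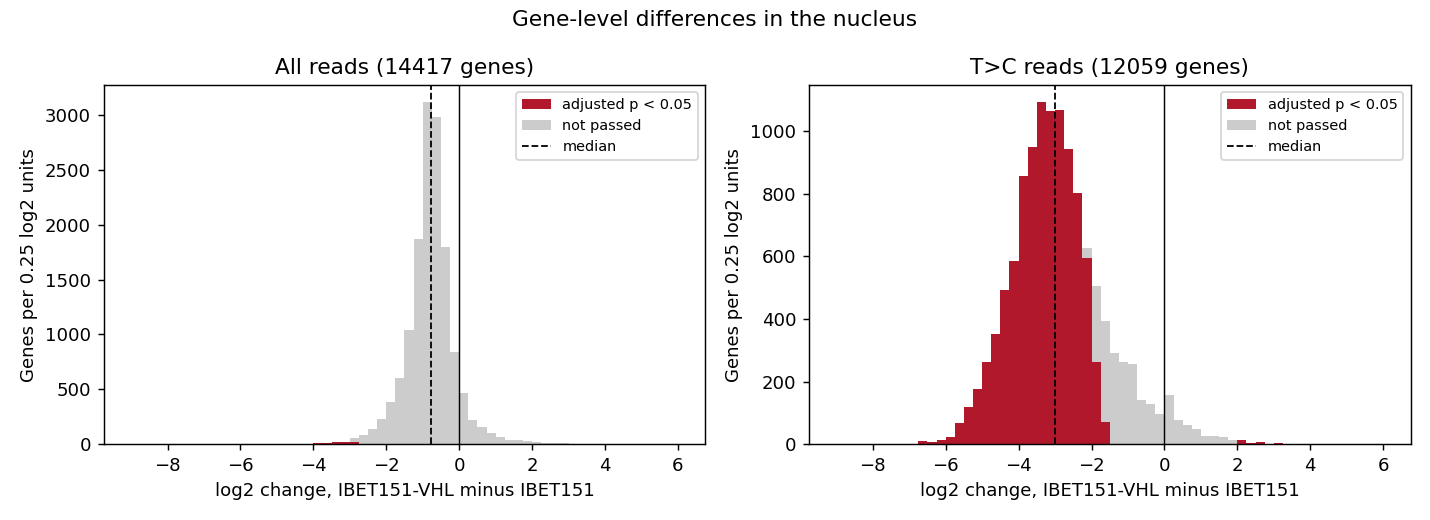
Number of genes per 0.25 log2 units of change (IBET151-VHL minus IBET151) in nuclear all reads (left, 14417 genes) and T>C reads (right, 12059 genes); red marks adjusted p under 0.05 and the dashed line the median. Most of the T>C distribution lies left of 0, around a median of -3.01, while all reads centre on -0.78 and few genes pass.

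The genes with the largest T>C falls were expressed at moderate levels with IBET151 and had few or no T>C reads with IBET151-VHL. MACIR, a regulator of macrophage metabolism, had no T>C read in any of the 3 IBET151-VHL libraries, against 103 and 133 with IBET151, at least 91.0-fold lower (adjusted p = 2.19e-10). METRNL, which encodes the secreted protein meteorin-like, had 0, 6.92 and 2.24 with IBET151-VHL and 330.3 and 311 with IBET151, a log2 change of -6.77 (95% interval -8.50 to -5.04). TSC1, which restrains mTOR signalling, was at 0 in every IBET151-VHL library, against 129 and 85.6 with IBET151, at least 82.7-fold lower. The groups did not overlap in these 3 genes, which the rule for naming genes required. The AP-1 subunit FOSL2 had 0.776, 0 and 0 with IBET151-VHL and 115 and 133 with IBET151 (log2 -6.69). RALGPS2, an exchange factor for Ral GTPases, and RCE1, a protease that trims prenylated proteins, were also without a T>C read with IBET151-VHL, at least 74.1-fold and at least 71.8-fold lower. The other 6 of the 12 largest falls were KDF1 of keratinocyte differentiation, the kinase DSTYK, the zinc finger gene ZNF275, the glycosyltransferase B4GAT1, the vacuolar ATPase subunit ATP6V1F and the caspase inhibitor BIRC2, between -6.63 and -6.49. All 12 passed without each library in turn and under every other setting tried. All reads of MACIR, TSC1, FOSL2, METRNL and BIRC2 did not pass the test, with log2 changes of -1.83, -1.09, -2.27, -2.60 and -1.09, smaller than those of their T>C reads.

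Few genes had more T>C reads with IBET151-VHL, and those had low T>C values with IBET151, at most 26.2 (ITGA9). THEMIS, a signalling protein of developing T cells, had 132, 74.4 and 213 with IBET151-VHL and 12.1 and 1.99 with IBET151, 20.6-fold higher (log2 4.37, 95% interval 2.47 to 6.26, adjusted p = 3.39e-05). The neuronal calcium channel gene CACNA1B had 38.8, 57.1 and 33.6 with IBET151-VHL and 16.1 and 0 with IBET151 (log2 3.38). CPE, the carboxypeptidase of hormone processing, had 51.2, 45.0 and 82.8 with IBET151-VHL and 12.1 and 1.99 with IBET151 (log2 3.23). The groups were apart in all 3 genes, which the rule for naming genes required. The sorting nexin SNX31 (log2 2.71) and the integrin ITGA9 (log2 2.03) rose as well, and these 5 were all of the 36 that met the minimum level for naming. In the 36 genes the mean over the 5 libraries was 2.04 to 86.6. Within both runs 34 of 36 were higher (1.36% of genes tested were), and 28 of 36 also passed as above DMSO (1.09% of genes tested did). Both counts use libraries the 36 were called on, the DMSO comparison sharing those of IBET151-VHL. These rises rest on few libraries: 4 of the 5 passed without IBET151-VHL replicate 1, 4 without replicate 3, 3 without IBET151 replicate 1 and 1, THEMIS, without IBET151 replicate 2.

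**Figure D3:**
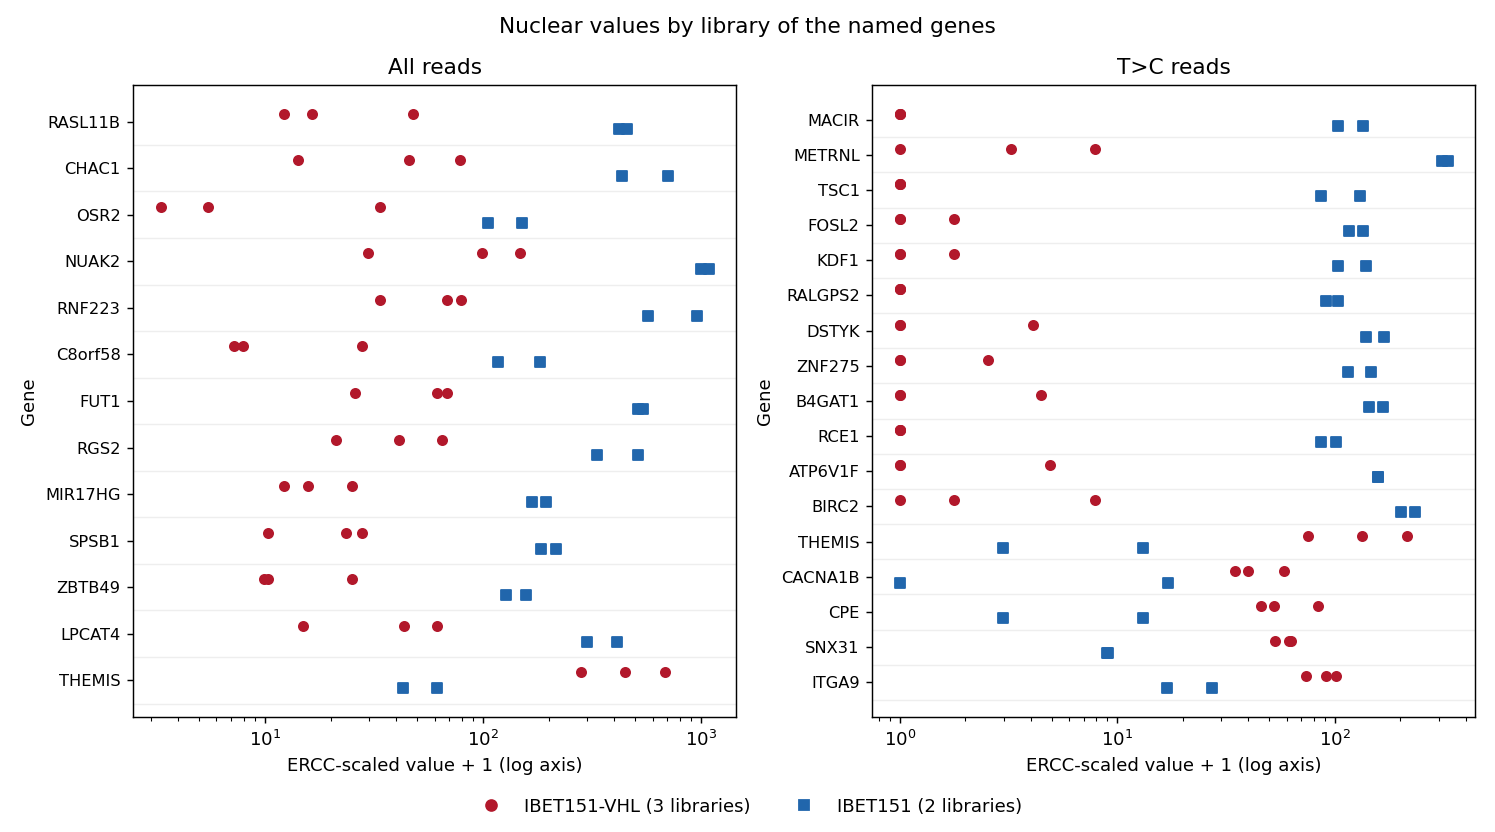
ERCC-scaled value + 1 on a log axis in each nuclear library for the genes with the largest changes, in all reads (left) and T>C reads (right); circles are the 3 IBET151-VHL libraries and squares the 2 IBET151 libraries. The groups are apart for each gene shown because genes were picked for this, and THEMIS is the only gene drawn as a rise in both panels.

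In the share of T>C reads within each gene the scaling cancels, apart from the 1 added to both values. The share was lower for 6480 of 12059 genes (53.7%) and higher for 32 (0.265%), with a median log2 change of -2.06. With 5 added in place of 1, it was lower for 3868 genes and higher for 34. TSC1 (log2 -5.63) and the Hippo kinase gene LATS2 (-4.91) and KBTBD7, an adaptor of a ubiquitin ligase (-4.44), led the falls, with an adjusted p of 0.00279 each. The rises with the smallest p were ADAMTS12, a secreted protease (3.27), ZNF385D, a zinc finger gene (3.59), and FOXQ1 (2.54). FOXQ1 had no T>C read in any of the 5 libraries, so its rise is set by its all reads and the added 1 alone. The count of share calls depends on IBET151 replicate 1, which had the higher share of the pair: without it 0 genes passed by limma, with 3804 at an unadjusted p under 0.05. It was 3091 without IBET151-VHL replicate 3 and 3743 without IBET151 replicate 2.

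A minority of genes kept their T>C share. Among 8437 genes with a mean of at least 20 over the 14 nuclear libraries, the median ratio of the share with IBET151-VHL to that with IBET151 was 0.188, and 122 genes (1.45%) had a ratio between 0.8 and 1.25. These 122 genes made up 14.2% of the summed T>C value with IBET151-VHL and 4.63% with IBET151, and without them the log2 difference of the T>C sums was -2.59. They were picked by the values described, and so were the genes named here, which were chosen after their values were seen. In TAFA2, a secreted brain protein gene, 92.8% of reads were T>C with IBET151-VHL and 94.0% with IBET151, and in SNX6, a sorting nexin gene, 45.5% and 45.5%. T>C reads that come from sources other than 4-thiouridine were not measured, since every library had received it. A kept or high T>C share is therefore not shown to be newly made RNA. In the immediate-early genes JUNB and IER2 the shares were 35.8% and 28.5% with IBET151-VHL, against 39.7% and 34.6% with IBET151. The histone gene H2BC5 had 19.0% with IBET151-VHL and 19.2% with IBET151, and the amino acid transporter gene SLC1A5 8.09% and 9.63%.

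Some of the genes best known for their response to BET inhibitors fell in T>C reads and others did not pass. MYC had 3.88, 20.8 and 15.7 with IBET151-VHL and 62.4 and 249 with IBET151 (log2 -3.38, 95% interval -5.06 to -1.70, adjusted p = 0.000229), with no overlap but with a call lost without IBET151 replicate 2 (log2 -2.39). HEXIM1, which holds the elongation kinase P-TEFb inactive and rises when BET proteins are inhibited, had 35.7, 106 and 69.4 with IBET151-VHL and 1267 and 1210.4 with IBET151 (log2 -4.25, adjusted p = 6.13e-07). HEXIM1 averaged 499 in DMSO, so it was high with the inhibitor and low with the VHL compound. The bromodomain gene BRD2 fell as well (log2 -2.65), though it was higher by median-ratio and TMM scaling (0.37 and 0.38). The luminal transcription factor gene GATA3 had 304, 1251 and 665 with IBET151-VHL and 5812 and 6426 with IBET151 (log2 -3.27). The receptor gene ERBB2, which encodes HER2, had 41.1, 48.4 and 73.9 with IBET151-VHL and 512 and 573 with IBET151 (log2 -3.33), while its all reads differed by -0.54 and did not pass (95% interval -2.17 to 1.09). Of the immediate-early genes, JUN fell (log2 -2.19; 0.83 by median ratios and 0.52 by TMM), and EGR1 (0.51, interval -1.08 to 2.11) and FOS (-1.02, interval -2.50 to 0.46) did not pass. The nuclear RNAs NEAT1 (-1.54, interval -3.16 to 0.08) and MALAT1 (-1.16, interval -2.68 to 0.37) did not pass either, and both were above 0 under the other scalings. TEX14, a gene of germ cell bridges, had 76.9, 168 and 150.0 with IBET151-VHL and 415 and 313 with IBET151, and did not pass (-1.52, interval -3.07 to 0.02; 1.48 by median ratios). The cilium gene DRC1 (0.96) and the cell cycle factor FOXM1 (-1.31), each with few T>C reads, did not pass.

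The lists below were chosen with earlier results of these data known, so their counts are descriptions set against the 81.4% of all genes that fell and the median of -3.01. 0 list members were higher in T>C reads per ERCC. The lists with the lowest medians were the VHL and hypoxia genes (25 of 27 lower, median -3.64), the MAP kinase feedback genes (13 of 14, -3.51), the p53 targets (21 of 22, -3.40) and the P-TEFb and elongation factors (27 of 27, -3.32). Among MAP kinase feedback genes, which damp growth factor signalling, SPRY1 had 0.776, 0 and 0 T>C reads with IBET151-VHL and 52.4 and 63.7 with IBET151 (log2 -5.60). The phosphatase gene DUSP6 fell by 3.48 and the stress gene IER3 by 3.53 on the log2 scale. Among p53 targets, PLK3, a stress kinase gene, had 2.33, 1.73 and 4.48 with IBET151-VHL and 242 and 223 with IBET151 (log2 -5.99), and the growth arrest gene GADD45A (-3.92) and BBC3, which encodes the death factor PUMA (-4.44), fell too. Among hypoxia genes, DDIT4, an mTOR inhibitor, fell (-3.76) and ADM did not pass (-1.74, interval -3.73 to 0.25), while CA9, a classic hypoxia gene, had at most 8.96 in all reads of any of the 5 libraries and did not pass there (1.48, interval -0.79 to 3.75). MEPCE, which caps the RNA that sequesters P-TEFb (-4.52), and ELL2, a subunit of the super elongation complex (-4.75), fell as members of the elongation list.

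The next lists, most of them of housekeeping genes, had medians from -3.21 to -2.40, some below and some above the median of all genes. All 39 respiratory chain genes (median -3.20), all 31 proteasome genes (-2.90) and all 32 genes of nuclear speckles and SR proteins (-2.89) fell, and of these NDUFB10 (-4.85), PSMD8 (-3.86) and CLK4, a kinase of splicing factors (-3.93), are examples. Of the mRNA export factors 32 of 34 fell (-3.15), among them RBM15, which also guides RNA methylation (-5.61), and NXT1, the partner of the export receptor (-3.60). Luminal and HER2 genes (27 of 30, -3.21), with TFAP2C (-4.48) and TBX3 (-3.83), ribosome biogenesis genes (30 of 31, -3.18), with POLR1C of RNA polymerases I and III (-3.55), and cell division genes (28 of 29, -2.66), with CDC25A (-3.34), were alike. Sterol synthesis genes (18 of 19, -2.54) and heat shock genes (16 of 18, -2.40) had smaller falls in their medians, and both lists turn with the scaling (0.44 and 0.60 by median ratios), as do cell division, speckle, proteasome and noncoding RNA lists (0.28, 0.08, 0.12 and 0.24). Fewer sterol and cell division genes passed without IBET151 replicate 1, and fewer heat shock genes without IBET151 replicate 2. Fewer of all genes passed under each of these settings too, with medians over all genes of -2.84 and -3.20.

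Other lists had medians nearer to 0 than that of all genes, and in each of them the share that fell was under the 81.4% of all genes. Of the polyadenylated histone genes, which package DNA, 5 of 19 fell (median -0.98), and fewer passed without IBET151 replicate 1. Of the BET response genes, those known to rise with BET inhibitors, 5 of 12 fell (-1.29), and 7 of that list are also in the histone list. Of the cytosolic ribosomal protein genes 34 of 62 fell (-1.59), and fewer without IBET151 replicate 2. Of the snoRNA host transcripts 6 of 8 fell (median -1.92), and fewer without that library, with SNHG15 at -2.67. By median-ratio scaling these 4 lists were above 0 (medians of 1.96, 1.72, 1.41 and 1.10), so their medians were higher relative to other genes. Then 12 histone, 7 BET response and 42 ribosomal protein genes passed as higher, against 691 of all 12059 genes tested. Per ERCC the medians of the 4 lists were 0, -0.32, -0.83 and -1.19 within run B. Within run C they were -0.79, -0.97, -1.56 and -1.95, so the histone median was below 0 in run C only. The members that fell were led by the variant histone genes H2AZ1 (-3.02), H2AZ2 (-2.47) and H2AX (-1.86), and in the BET response list by HEXIM1, BRD2 and the protease inhibitor gene SERPINI1 (-4.04). Of 8437 genes with a mean of at least 20, 168 (1.99%) were less than 2-fold lower or were higher, as were 8 of 17 such histone, 5 of 11 BET response, 4 of 59 ribosomal protein and 3 of 34 short-lived mRNA genes. H2BC5 had 769, 3880 and 2709 with IBET151-VHL and 2030.0 and 1871 with IBET151, which overlap (log2 0.04, interval -1.49 to 1.58). Copies of histone genes are near-identical, so reads may be split between them. Against DMSO the histone list had a median of 1.02 with IBET151-VHL and 1.71 with IBET151, and the MAP kinase list -3.72 and -0.15, in comparisons that share the DMSO libraries. Of the short-lived mRNAs 24 of 37 fell (-2.52, and 0.49 by median ratios), led by SOX9 (-5.28), MYC and KLF4 (-4.99). Fewer of them passed without IBET151 replicate 2. Of the 6 nuclear noncoding RNAs tested 4 fell (-2.72): PVT1, the neighbour of MYC (-3.41), and FTX (-2.51) and JPX (-2.94) of the X inactivation centre were among them. Of 3 markers of other cell types tested, COL1A1 fell (-2.74), an adjusted call lost without IBET151 replicate 1.

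**Figure D4:**
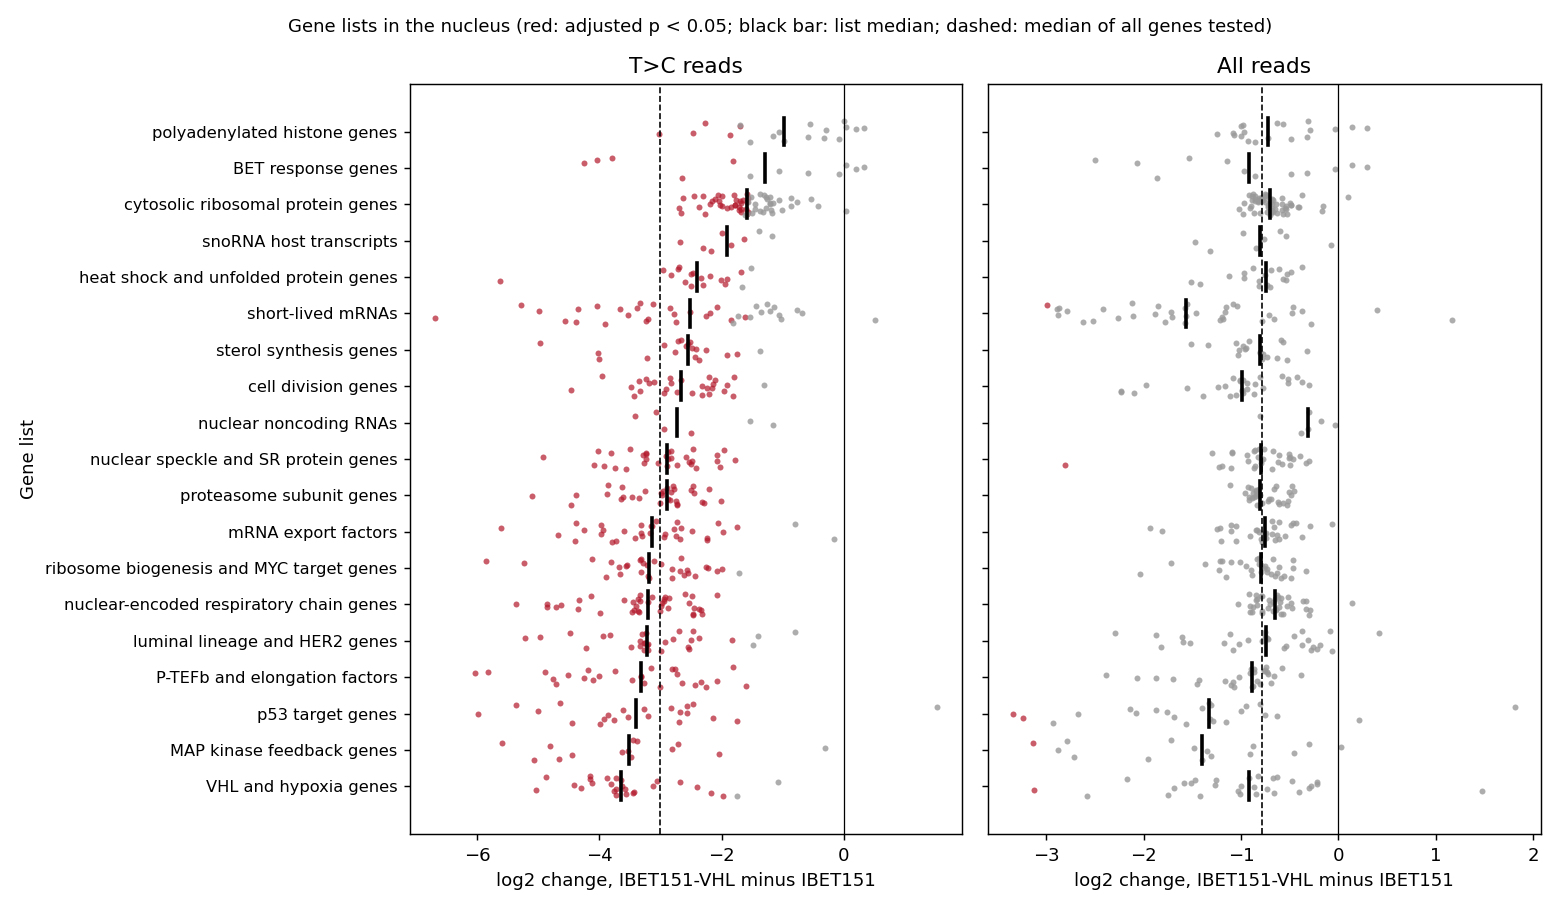
log2 change (IBET151-VHL minus IBET151) of every tested member of the gene lists in nuclear T>C reads (left) and all reads (right); red points have adjusted p under 0.05, black bars are list medians and the dashed line is the median of all genes tested. Histone, BET response and ribosomal protein genes lie to the right of the median of -3.01 in T>C reads, and few list members pass in all reads.

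In all reads, 73 of 14417 genes were lower (0.506%) and 5 were higher (0.0347%) with IBET151-VHL. The median of all genes was -0.78, but -0.21 within run B, -0.37 within run C and -0.28 without IBET151-VHL replicate 1, and it was 0.04 by median ratios and 0.01 by TMM, so how far all genes are shifted differs between these settings. All 73 were lower and all 5 higher within both runs, where 55.2% of genes tested were lower and 10.3% higher in both. No group overlap was seen in any of the 78, against 40.7% of genes tested that were lower and 1.48% that were higher without overlap. Both counts use the libraries that the 78 were called on, so neither is a separate check. Of the 73, 64 also fell in T>C reads (87.7% of the 73 and 0.652% of the 9815), and 48 passed as below DMSO as well (3.66% of genes tested did), in a comparison that shares the IBET151-VHL libraries. The count rests on each of 4 libraries: 11 genes passed without IBET151-VHL replicate 1, 33 without IBET151-VHL replicate 3, 7 without IBET151 replicate 1, and without IBET151 replicate 2 only 1 gene passed, as higher. By median ratios 96 genes were higher and 495 lower, and by TMM 65 and 579. With the run of library numbers as a term 159 genes were higher and 2608 lower, and with weights per library 234 and 2468, the 78 genes being among those called in both fits.

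Promoters are shown for the genes with the largest all-read change among those that passed in both kinds of reads, 2 that fell and then 2 that rose. The sequences come from RefSeq on GRCh38.p14, run from 250 bases before to 50 bases after the annotated start, and carry matches to the TATA box (TATAAA), the CCAAT box and the GC box (GGGCGG) on either strand in capitals.
RASL11B, chr4:52862067-52862366, + strand: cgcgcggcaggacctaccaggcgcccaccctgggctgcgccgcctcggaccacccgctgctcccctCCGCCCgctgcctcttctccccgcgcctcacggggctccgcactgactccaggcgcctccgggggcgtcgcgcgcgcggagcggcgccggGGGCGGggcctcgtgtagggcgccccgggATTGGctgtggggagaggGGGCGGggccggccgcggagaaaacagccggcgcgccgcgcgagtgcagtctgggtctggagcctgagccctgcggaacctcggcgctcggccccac
ZNF597, chr16:3443455-3443754, - strand: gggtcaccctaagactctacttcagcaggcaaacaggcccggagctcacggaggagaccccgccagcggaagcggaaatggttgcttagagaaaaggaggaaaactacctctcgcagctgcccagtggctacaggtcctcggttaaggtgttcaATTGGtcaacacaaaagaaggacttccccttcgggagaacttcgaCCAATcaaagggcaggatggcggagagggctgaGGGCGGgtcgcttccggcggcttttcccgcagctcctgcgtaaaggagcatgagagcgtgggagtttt
G6PC2, chr2:168901041-168901340, + strand: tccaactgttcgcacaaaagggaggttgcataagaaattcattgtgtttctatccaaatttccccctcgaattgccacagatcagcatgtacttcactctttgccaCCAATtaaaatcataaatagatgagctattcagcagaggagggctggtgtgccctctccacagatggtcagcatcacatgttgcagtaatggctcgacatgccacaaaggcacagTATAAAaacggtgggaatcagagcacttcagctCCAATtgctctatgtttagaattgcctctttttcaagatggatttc
THEMIS, chr6:127855139-127855438, - strand: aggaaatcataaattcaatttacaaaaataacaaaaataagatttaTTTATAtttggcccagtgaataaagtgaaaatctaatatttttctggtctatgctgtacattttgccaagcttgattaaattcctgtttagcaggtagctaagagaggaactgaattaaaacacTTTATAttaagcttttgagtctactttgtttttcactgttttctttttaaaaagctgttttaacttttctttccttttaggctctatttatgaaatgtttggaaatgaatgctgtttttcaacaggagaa
The 2 genes that fell have GC boxes and CCAAT boxes. RASL11B holds GGGCGG or its reverse complement 184, 94 and 47 bases before the start and a CCAAT box 65 bases before it. ZNF597 holds CCAAT boxes 96 and 51 bases and a GC box 18 bases before the start. The 2 that rose hold no GGGCGG in this window. G6PC2 has TATAAA 29 bases before the start. Like the 2 that fell it has CCAAT boxes, 144 bases before and 5 bases after the start. THEMIS, whose first of 3 entries is shown, has TATAAA 204 and 80 bases before the start. The E-box CACGTG and the cyclic AMP response element, TGACGTCA, were also searched on both strands and are in none of the 4. Of the 64 genes lower in both kinds of reads 44 had an entry, and of these 32 hold a GC box (72.7%), 21 a CCAAT box (47.7%), 6 an E-box (13.6%), 2 a TATA box (4.55%) and 2 a cyclic AMP element (4.55%). Among 11362 promoters of tested genes these shares were 67.3%, 36.5%, 9.53%, 6.25% and 3.04%, and among all 27305 promoters 44.6%, 35.7%, 7.43%, 11.95% and 1.98%.

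RASL11B, a small GTPase of the Ras family, had 15.5, 46.7 and 11.2 in all reads with IBET151-VHL and 421 and 458 with IBET151, 20.7-fold lower (log2 -4.37, 95% interval -5.87 to -2.87, adjusted p = 0.00168). ZNF597, a zinc finger gene under the level set for naming and chosen after its values were seen, had no read in the 3 IBET151-VHL libraries and 28.2 and 35.8 with IBET151, at least 24.7-fold lower (adjusted p = 0.002). CHAC1, which degrades glutathione and is induced by amino acid stress, had 13.2, 77.8 and 44.8 with IBET151-VHL and 431 and 705 with IBET151 (log2 -3.89). The groups did not overlap in these genes, which the rule for naming genes required of RASL11B and CHAC1. NUAK2, a kinase related to AMPK, had 28.7, 147 and 98.5 with IBET151-VHL and 1088 and 999 with IBET151 (log2 -3.78). MIR17HG, the host transcript of an oncogenic microRNA cluster that MYC activates, had 14.7, 24.2 and 11.2 with IBET151-VHL and 193 and 167 with IBET151 (log2 -3.42). RGS2, which shortens G protein signals, had 20.2, 64.0 and 40.3 with IBET151-VHL and 332 and 514 with IBET151 (log2 -3.43). Its DMSO mean was 55.2, so RGS2 stood high with the inhibitor and near the DMSO level with the VHL compound, but its rise with IBET151 over DMSO did not pass (log2 3.13, adjusted p = 0.0645). Of the 73 genes FGF22, a growth factor gene chosen after its values were seen, was the 1 that passed as higher with IBET151 than with DMSO (log2 3.20; 0.0902% of genes tested did). The remaining large falls were OSR2, a zinc finger factor (-3.89), RNF223 (-3.70), C8orf58 (-3.65), the fucosyltransferase FUT1 (-3.47), SPSB1 (-3.40), ZBTB49 (-3.37) and LPCAT4, an enzyme of phospholipid remodelling (-3.36). All 12 were lower under every setting. Of them 5 passed without IBET151-VHL replicate 1 (RASL11B, CHAC1, RNF223, C8orf58 and MIR17HG), 10 without IBET151-VHL replicate 3, 2 without IBET151 replicate 1 and 0 without IBET151 replicate 2, where RASL11B had a log2 change of -4.31.

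The 5 rises in all reads were genes with low values with IBET151, at 6.04 or less in all but THEMIS. THEMIS had 447, 282 and 681 with IBET151-VHL and 60.4 and 41.8 with IBET151, 8.62-fold higher (log2 3.11, 95% interval 1.68 to 4.53, adjusted p = 0.0208). It was the only rise that met the level for naming, and its call was lost without either replicate 1 or 3 of IBET151-VHL (log2 3.10 and 2.80) and without either IBET151 library (3.37 and 2.85). The other 4 were chosen after their values were seen. G6PC2, a glucose phosphatase gene of pancreatic islets, had 46.6, 70.9 and 78.4 with IBET151-VHL and 2.01 and 3.98 with IBET151 (log2 4.06), and 0 in DMSO. The Wnt inhibitor gene WIF1 had 16.3, 10.4 and 22.4 with IBET151-VHL and no read with IBET151, at least 5.45-fold higher against a floor of 3 reads. WIF1 did not pass as above DMSO with IBET151-VHL (log2 1.62, limma adjusted p = 0.302). Its change with IBET151 against DMSO was -2.43 and did not pass either. The 4 rises other than WIF1 passed as above DMSO with IBET151-VHL, in a comparison that shares the IBET151-VHL libraries. FEZF1, a factor of forebrain development, had 37.3, 48.4 and 35.8 with IBET151-VHL and 6.04 and 0 with IBET151, and the synaptic gene LRRTM2 had 22.5, 17.3 and 42.5 with IBET151-VHL and 4.03 and 0 with IBET151. The groups were apart in all of them, which the rule for naming genes required only of THEMIS. G6PC2 and THEMIS were the 2 that rose in T>C reads too.

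Few members of the lists passed in all reads per ERCC, and none as higher. SPRY1 had 37.3, 55.4 and 80.6 with IBET151-VHL and 455 and 534 with IBET151 (log2 -3.14, adjusted p = 0.0281). The stress genes PLK3 (-3.34), GADD45A (-3.24) and DDIT4 (-3.12), SOX9 of epithelial progenitors (-2.99) and DYRK3, a kinase that dissolves speckles (-2.81), fell as well, 1 of 15 MAP kinase feedback, 2 of 23 p53, 1 of 29 hypoxia, 1 of 37 short-lived and 1 of 32 speckle genes against 0.506% of all genes. By median-ratio scaling more members passed as lower: 12 of 37 short-lived, 5 of 15 MAP kinase feedback, 6 of 23 p53 and 4 of 29 hypoxia genes (14, 5, 7 and 5 by TMM). Of all 14417 genes tested, 495 were lower by median ratios and 579 by TMM. The BET response, luminal and HER2, p53 and histone lists had 1 member each that passed as higher under both scalings, against 96 and 65 of all genes. For each of the 5 lists named first the ERCC-scaled count was 0 without 1 of the libraries at least, IBET151-VHL replicate 1 among them. MYC had 10.9, 41.5 and 29.1 with IBET151-VHL and 82.6 and 394 with IBET151, which do not overlap but did not pass (log2 -2.88, interval -4.44 to -1.31, adjusted p = 0.0695). List medians were -1.57 for short-lived mRNAs, -1.40 for MAP kinase feedback genes, -1.33 for p53 targets and -0.31 for nuclear noncoding RNAs, beside -0.78 for all genes. Within run B they were -0.88, -0.82, -0.75 and 0.02, beside -0.21 for all genes, and within run C -1.33, -1.36, -1.03 and 0.14, beside -0.37, so the median of the noncoding RNAs was not below 0 in either run.

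All reads were lower in genes with a large T>C share in DMSO than in genes with a small one. The T>C share of a gene in the nuclear DMSO libraries, which were not part of the comparison, was used to sort genes, and values are given within the runs because replicate 1 shifts all of them. For the 641 genes with a DMSO share under 1% the median all-read change was -0.05 in run B and -0.30 in run C. It was -0.58 and -0.52 for the 2656 genes with 10 to 20%, and -1.15 and -1.03 for the 515 genes with 20 to 40%. Of those 515 genes 23 fell (4.47%), against 2 of 641 (0.312%) at the low end. The 22 genes above 40%, TAFA2 and SNX6 among them, had medians of -0.69 and -0.89. JQ1-VHL minus JQ1, which shares no library with this comparison, had medians of 0.07, -0.24 and -0.62 in these 3 classes. Gene span gave no such order in both runs: for T>C reads the median was -2.83 in run B and -2.07 in run C for 626 genes over 200 kb, and -2.65 and -3.28 for 720 genes of 5 to 10 kb.

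**Figure D5:**
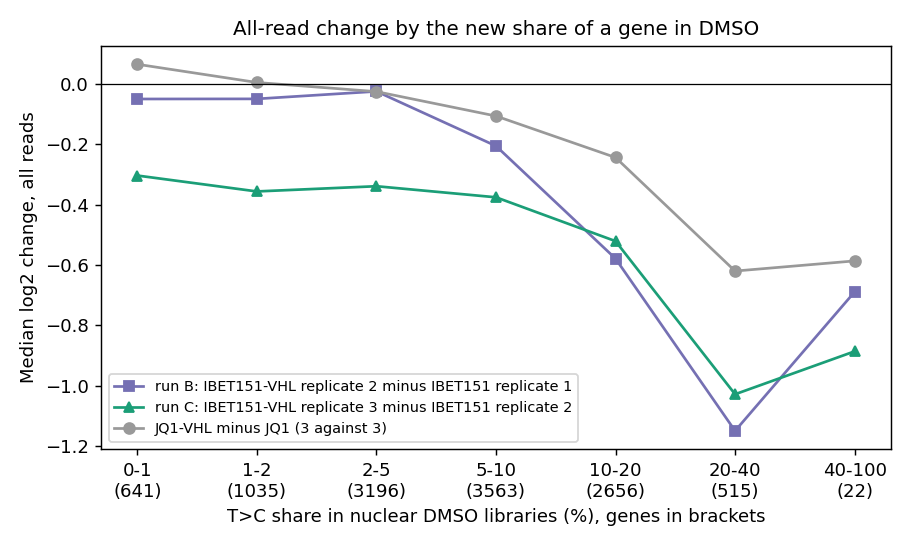
Median log2 change of nuclear all reads by class of T>C share in the nuclear DMSO libraries (percent, number of genes in brackets); squares are run B and triangles run C of IBET151-VHL minus IBET151, circles JQ1-VHL minus JQ1. Both runs lie lowest at 20 to 40%, with medians of -1.15 and -1.03, and highest among genes with a low share.

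The other pair of inhibitor and VHL compound in the series is JQ1 and JQ1-VHL, also with unknown doses. JQ1 and IBET151 are different bromodomain ligands, and both VHL compounds carry a VHL ligand according to their names. In T>C reads 1563 of 12059 genes (13.0%) fell with JQ1-VHL against JQ1 and 40 rose (0.332%), with a median of -1.17, beside -3.01 for the IBET151 pair. The difference between the 2 pairs was tested gene by gene, 2 pairs being compared in all: 65 genes were lower in the IBET151 pair (0.539%) and 0 higher. TSC1 had a difference of -5.81 (95% interval -8.29 to -3.34, adjusted p = 0.036): it averaged 0 with IBET151-VHL and 107 with IBET151, and 26.1 with JQ1-VHL and 47.9 with JQ1. The splicing factor gene CWC22 had a difference of -5.65 (interval -8.17 to -3.14), with 0.259 for IBET151-VHL and 59.1 for IBET151, and 30.2 for JQ1-VHL and 29.6 for JQ1. SLC2A10, a glucose transporter gene, had -4.75 (interval -6.89 to -2.61), with 5.62 and 121 in the IBET151 pair and 96.0 and 93.6 in the JQ1 pair. These calls depend on single libraries: 0 genes passed without IBET151-VHL replicate 3, without either IBET151 library, without JQ1-VHL replicate 2 or 3 or without JQ1 replicate 1 or 3, 24 without IBET151-VHL replicate 1, 540 without IBET151-VHL replicate 2, 546 without JQ1 replicate 2 and 6141 without JQ1-VHL replicate 1. The JQ1 libraries include run D with its low T>C share, and no IBET151 library is in that run, so part of the difference between the pairs and the run cannot be told apart. In all reads 0 of 14417 genes differed by limma, with 180 at an unadjusted p under 0.05. Among the genes that changed most in all reads, RASL11B was -3.16 in the JQ1 pair (difference -1.21), RGS2 -3.25 (-0.18), THEMIS 3.37 (-0.26) and G6PC2 4.83 (-0.76). Intervals of such differences were wide, so these values do not show that the pairs act alike.

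In the cytoplasm a smaller difference between the same compounds was measured, at a depth that limits it. Of the 13029 genes with T>C values, 8616 to 8812 had no T>C read in a cytoplasmic library of IBET151-VHL. With IBET151 5341 and 5010 genes had none, and a fall of a gene at 0 in both IBET151 libraries was not detectable. A gene with reads only with IBET151 could pass as lower, but the size of its fall is limited by the floor. T>C reads of 4038 of 12067 genes (33.5%) were lower there with IBET151-VHL than with IBET151 and 0 were higher, with a median of -1.05. The nuclear change minus the cytoplasmic change was below 0 for 2473 genes (20.5%) and above 0 for 22 (0.182%), and the count below 0 includes genes at 0 in the cytoplasm, for which it does not show a smaller cytoplasmic fall. In TSC1 it was -6.73, in PAXX, a gene of DNA end joining, -6.67 and in SMARCAL1, a helicase gene of stalled replication forks, -6.32, and each of these had almost no T>C read in the cytoplasm of either group. TSC1, for example, averaged 0 in the cytoplasm of both groups. In the other direction KLF6, a zinc finger factor gene induced early by growth signals, had a difference of 2.94: its T>C mean in nuclei was 1076 with IBET151-VHL and 1794 with IBET151, and in the cytoplasm 11.7 and 163. SLC9C2, of the sodium-proton exchangers, had a difference of 3.86 and the deiodinase gene DIO2 one of 4.09, at nuclear means of 24.5 and 19.6 with IBET151-VHL and 1.01 and 3.01 with IBET151. Without IBET151 nuclear replicate 1 the count of differing genes was 665, without IBET151 cytoplasmic replicate 1 it was 1297, and by median ratios 72 genes were above 0 and 18 below, so the prevailing direction turns with the scaling. In all reads 0 of 14458 genes had a nuclear change different from the cytoplasmic one by limma, with 278 at an unadjusted p under 0.05 and 11 genes above 0 by median ratios.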

How the data were processed

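The authors deposited one table of all reads with 16482 genes and one of T>C reads with 13029, as signal scaled to ERCC RNA; per the labels' protocols 2 µl of ERCC was added to 2 µg of RNA. The submitters' processing notes name bcl2fastq, Trimmomatic 0.39, HISAT2, HTSeq and DESeq2. The builds they list are GRCh37, hg19 and dm3. The rule by which a read was counted as T>C is not given in the sources used here. Within a library each value was a multiple of 1 step shared by both tables: 100% lay within 0.001 of a whole read, so reads were recovered for the count tests. Columns were mapped by name. Of the genes 393 and 207 had no symbol and were tested but not named.

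A value of at least 10 in all reads, or 5 in T>C reads, was required in 2 libraries or more. Genes were fitted as log2(value + 1) with limma 3.58.1 (R 4.3.3), with a variance trend, over the 14 nuclear libraries or all 28 for the comparison of fractions, so a fold understates the change of low genes. Benjamini-Hochberg adjustment covered all genes of a comparison, with a threshold of 0.05. The T>C fit shared 1 spread across genes of a level. Library sums and shares had two-sided exact permutation tests over 10 arrangements.

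The members and lists were chosen with earlier results of these data known. Genes were named by a rule: the 12 largest rises and falls that passed without overlap and with a mean of 50 or more in all reads, or 20 or more in T>C reads, fewer where fewer passed, the 3 of smallest p per list and for each test of a share or difference in each direction, and 16 defining genes. Alternatives were pseudocounts of 0.5 and 5, no or a 5 times higher filter, median-ratio scaling, fits of only the compared groups, blocks by replicate number and by run of library numbers, weights per library, edgeR 4.0.16 (quasi-likelihood, also with TMM) and DESeq2 1.42.0 on recovered reads, and leaving out each library. The fit was tested on simulated data. Python 3.11.15 and matplotlib 3.10.9 were used for figures.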

Additional observations from a re-analysis of the deposited data

Results flagged for a closer look

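Genes were noted where the nuclear change between IBET151-VHL and IBET151 itself differed from another change by the test of that difference in limma. Set against JQ1-VHL minus JQ1, 65 genes differed in T>C reads, all lower in the IBET151 pair, with TSC1 (-5.81), CWC22 (-5.65) and SLC2A10 (-4.75) having the smallest p. Run D, which holds JQ1 but no IBET151 library, had low T>C shares. Without its nuclear JQ1 library, replicate 3, 0 genes differed, and the median difference of all genes was -1.54, beside -1.74 with it. Whether the loss of calls came from the run or from having 1 library fewer was not tested.

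Set against the cytoplasm, 2495 genes differed in T>C reads. The smallest p among those with a lower nuclear change had TSC1 (-6.73), PAXX (-6.67) and SMARCAL1 (-6.32), and among those with a higher one SLC9C2 (3.86), DIO2 (4.09) and KLF6 (2.94). T>C depth in the cytoplasm is lower and moves with the difference, as the mean summed T>C value was 0.0695 M with IBET151-VHL and 0.192 M with IBET151 there, and its part was not tested.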

How the results depend on the processing

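The count of genes that passed in all reads, 78, was 40 with no filter on low values, 135 with only the compared groups in the fit, 2702 with weights per library, 591 by median-ratio scaling and 644 by TMM, and 65 to 99 under the other pseudocounts, the higher filter, edgeR and DESeq2. Leaving out each library in turn gave 1 to 84. In T>C reads the 9851 genes became 1882 by median ratios and 1321 by TMM, and were 7618 to 9709 with a library left out. The T>C share per gene passed in 6512 genes, in 3902 with a pseudocount of 5, and in 0 to 7014 with a library left out. The 65 genes that differed from the JQ1 pair in T>C reads were 0 with a pseudocount of 5 and 3 by median ratios, and 0 to 6141 with a library left out. The 2495 genes that differed between the fractions in T>C reads were 5826 with a pseudocount of 5 and 90 by median ratios, most of those above 0, and 665 to 2886 with a library left out. The 0 genes that differed between the fractions in all reads were 11 by median ratios, and 0 to 1 with a library left out. Summed values and the T>C share of a library kept their direction under every alternative, at -1.02 to -0.19 for all reads, -2.66 to -2.09 for T>C reads and -4.19 to -2.26 percentage points for the share. The cause of these differences was not tested.

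Replicate numbers 1 and 2 occur in both groups. Libraries of equal number deviated from their group means together across genes with r = 0.266 (all reads) and 0.0144 (T>C), over 2 shared numbers. The labels give such a number no meaning, so the libraries share only a number. With the replicate number as a block 9443 genes passed in all reads, and 40 and 720 differed from the JQ1 pair in all and T>C reads. With runs of library numbers as the block (r = 0.181 and 0.0257) the counts were 2767 in all reads and 212 for the T>C difference from the JQ1 pair.

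Single genes in T>C reads that had the opposite sign under another scaling and passed in at least 1 of the fits compared, as log2 change, were by median ratios BRD2 0.37, CCNE1 0.037, CCNE2 0.28, CLK3 0.85, COL1A1 0.23, DNAJB1 1.07, ELF3 0.47, EPB41L4A-AS1 0.82, FTX 0.49, H2AX 1.14, H2AZ2 0.53, HERPUD1 0.41, HSPA1B 0.83, JUN 0.83, JUNB 2.34, KLF6 2.26, MVD 0.0102, MVK 0.44, NDUFA6 0.0082, NEAT1 1.48, PSMC6 0.56, PSMD3 0.12, RPL12 1.43, RPL28 1.54, RPL8 1.33, SLC1A5 2.17, SNHG15 0.22, SNHG8 1.03, TEX14 1.48 and UQCRQ 0.37, and by TMM BRD2 0.38, CCNE2 0.25, CLK3 0.69, COL1A1 0.42, DNAJB1 0.97, ELF3 0.31, EPB41L4A-AS1 0.72, FTX 0.45, H2AX 1.07, H2AZ2 0.53, HERPUD1 0.34, HSPA1B 0.78, JPX 0.16, JUN 0.52, JUNB 2.17, KLF6 2.16, MALAT1 2.00, MVD 0.19, MVK 0.47, NDUFA6 0.0575, NEAT1 1.43, PSMC6 0.53, PSMD3 0.13, RPL12 1.36, RPL28 1.58, RPL8 1.25, SLC1A5 1.99, SNHG15 0.43, SNHG8 0.91, SNX6 2.04, TEX14 1.42 and UQCRQ 0.42. MALAT1 (1.86), SNX6 (2.11), TAFA2 (2.22), FOS (2.00), IER2 (1.95), ADM (0.95) and VWF (1.41) had the opposite sign by median ratios without passing in either fit, as did TAFA2, FOS, IER2, ADM, VWF and FOXM1 by TMM.

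IBET151-VHL libraries held 214725 to 307472 T>C reads, and the folds of genes at 0 there are bounds. Counts were simulated at the depth, spread and number of these libraries, whose parts were not told apart. In all reads 0 of 50 genes changed 2-fold were found, 3 of 50 changed 4-fold and 16 of 50 changed 8-fold, and in T>C reads 0, 10 and 18 of 50. The simulation left 11859 of 12059 genes unchanged in T>C reads, whereas 9815 fell in the data. Its T>C counts therefore do not give the share of real T>C changes of that size that would pass. A gene that did not pass is not shown to be equal between the groups.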
